A study of Rattus norvegicus with 26 samples.

Results

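Transcript levels of 9 genes of lytic cell death were followed through spinal cord injury (SCI) and human stem cell treatment in the rat. The 9 genes, of 32883 in the count table, were Ninj1, Gsdmd, Casp1, Nlrp3, Pycard, Mlkl, Ripk3, Il1b and Il18, found by gene symbol. Ninj1 was picked on its measured values, a higher level after injury and a lower one with treatment 1 week after transplantation. The other 8 genes were added for their place in the same inflammasome and membrane lysis pathway, though with earlier results of these data known. Comparisons of Ninj1 with Intact, with the group at transplantation, and between treatments at 1 week are therefore given as a description, with no test. All 9 genes were among the 17990 that passed the filter on low counts.

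RNA sequencing covered 26 libraries of 5 mm cord segments around the lesion, from wild type female Sprague-Dawley rats labelled as postnatal day 70. Intact (n = 4) held uninjured or sham rats, and all other rats had the cord clipped at T10 for 1 min with a force of 60 g. The group sub-SCI (n = 3) was taken 7 days after injury, the day of transplantation. The remaining rats received an intrathecal injection of human umbilical cord mesenchymal stem cells (+MSC) or of phosphate buffered saline (+PBS) on that day and were taken 1, 2 or 4 weeks post transplantation (wpt). The +PBS groups had 3, 2 and 4 libraries at 1, 2 and 4 wpt and the +MSC groups 3, 3 and 4. The methods state that rats received cyclosporin A, an immunosuppressant, daily, and do not set any group apart in this. Reads that mapped to the human genome had been removed before counting, so the values are those of the rat host.

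Lytic cell death ends with rupture of the plasma membrane and spills the cell's contents into the tissue. In pyroptosis, a sensor such as NLRP3 assembles with the adaptor ASC into an inflammasome, which activates caspase-1. Caspase-1 matures the cytokines interleukin-1 beta and interleukin-18 and cuts gasdermin D, whose fragment forms pores in the membrane. In necroptosis, the kinase RIPK3 phosphorylates MLKL, which then permeabilizes the membrane. NINJ1, first described as an adhesion molecule induced by nerve injury, clusters in the membrane of dying cells and ruptures it. In injured cord, these proteins are best known from microglia and from macrophages that enter from the blood. Transcript levels do not report cleavage, phosphorylation or clustering, the steps by which these proteins act.

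The sequences in front of the transcription start sites were compared first, since several of these genes moved together in the counts. RefSeq (rat build GRCr8) gave the 250 bases before the start for 8 of the 9 genes. The sequence of Ninj1 is shown because its base composition stands apart, that of Casp1 because it held 3 of the motifs searched and that of Il1b because it held the only TATA box. They are written 5′ to 3′ on the strand of the gene, with motif matches in capitals.
Ninj1 (chr17:15668032-15668281, minus strand): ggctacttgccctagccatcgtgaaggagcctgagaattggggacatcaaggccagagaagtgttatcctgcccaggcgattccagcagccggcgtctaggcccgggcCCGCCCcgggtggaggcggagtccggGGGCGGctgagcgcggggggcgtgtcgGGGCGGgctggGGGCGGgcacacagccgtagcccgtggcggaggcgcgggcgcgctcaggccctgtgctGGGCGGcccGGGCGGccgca
Casp1 (chr8:10872580-10872829, plus strand): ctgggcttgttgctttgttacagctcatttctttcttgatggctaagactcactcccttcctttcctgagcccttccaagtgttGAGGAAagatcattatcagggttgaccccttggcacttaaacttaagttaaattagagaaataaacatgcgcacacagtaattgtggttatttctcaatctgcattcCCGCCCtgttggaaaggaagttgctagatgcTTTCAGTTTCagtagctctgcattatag
Il1b (chr3:137036582-137036831, minus strand): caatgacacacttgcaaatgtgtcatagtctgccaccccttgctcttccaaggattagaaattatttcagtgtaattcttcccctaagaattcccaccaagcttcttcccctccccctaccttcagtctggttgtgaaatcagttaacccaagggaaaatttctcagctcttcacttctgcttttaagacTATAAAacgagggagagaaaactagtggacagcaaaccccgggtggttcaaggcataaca
The capitals of Ninj1 mark 6 GC boxes (GGGCGG or its reverse complement), a motif found at least once in 30.5% of 33469 rat promoters of this length. The GC content of this stretch was 74.4%, against a median of 51.2% over all promoters and 38.4% to 54% in the other 7 genes. In Casp1 the capitals mark, in order, a PU.1 core (GAGGAA, 23.3% of promoters), a GC box and an interferon response core (3.41% of promoters). In Il1b they mark a TATA box (TATAAA, 12.9% of promoters) that began 60 bases before the annotated start. Nlrp3 held 1 PU.1 core and Pycard 1 GC box, and Mlkl, Ripk3 and Il18 held none of the motifs. An NF-kB site, present in 3.54% of promoters, was not found in the window of any of the 8 genes. These motifs were searched on both strands and describe letters in a window, not binding.

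Total counts per library ranged from 19496602 to 43468509. In Intact cord, the genes lay between 6 reads per library (Il1b) and 639 (Ninj1). Levels are given as CPM, the count of a gene scaled to its library's TMM-normalized size, and as CPM per kilobase of gene length where genes are compared with each other. The labels do not say whether replicates were separate animals, while the methods call them biological replicates. Libraries labelled replicate 1 deviated from their group means in related ways across groups, with a median correlation of 0.17 (range -0.15 to 0.45) over 28 pairs, against 0.01 for replicate 2. Several results on single genes are given with and without them. Library overlaps, marker sums and list counts are given only with them. In bulk tissue, fewer cells of a type and less RNA per cell cannot be told apart.

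Per kilobase of gene length, Ninj1 was the most abundant of the 9 transcripts in Intact and sub-SCI. Its level was 19.4, 22.4, 23.1 and 24.3 CPM in the 4 Intact libraries and 178, 203 and 186 CPM in the 3 sub-SCI libraries. The group means were 22.3 ± 2.1 (SD, n = 4) and 189 ± 12.7 (SD, n = 3), 8.48-fold apart, with no overlap. With PBS it then stood at 118, 127 and 114 CPM at 1 wpt, at 83.3 and 56.1 CPM at 2 wpt, and at 75.7, 59.0, 73.4 and 67.6 CPM at 4 wpt. With MSC it stood at 61.9, 55.0 and 60.8 CPM at 1 wpt, at 47.9, 43.3 and 48.4 CPM at 2 wpt, and at 44.6, 55.0, 53.4 and 57.6 CPM at 4 wpt. No injured library, treated or not, came down to the Intact range.

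Ordered by mean, the 8 groups ran from sub-SCI through +PBS-1w (119.8 ± 6.72 CPM, SD, n = 3), +PBS-2w (69.7 ± 19.2, n = 2), +PBS-4w (68.9 ± 7.44, n = 4), +MSC-1w (59.2 ± 3.67, n = 3), +MSC-4w (52.6 ± 5.62, n = 4) and +MSC-2w (46.5 ± 2.79, n = 3) to Intact. Neighbors from +PBS-2w to +MSC-2w overlapped in their libraries, whereas sub-SCI, +PBS-1w and Intact each stood clear of the groups beside them. On the log2 scale, +PBS kept 78.6%, 53.3% and 52.7% of the sub-SCI difference from Intact at 1, 2 and 4 wpt. The +MSC groups kept 45.7%, 34.4% and 40.1%.

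**Figure D1:**
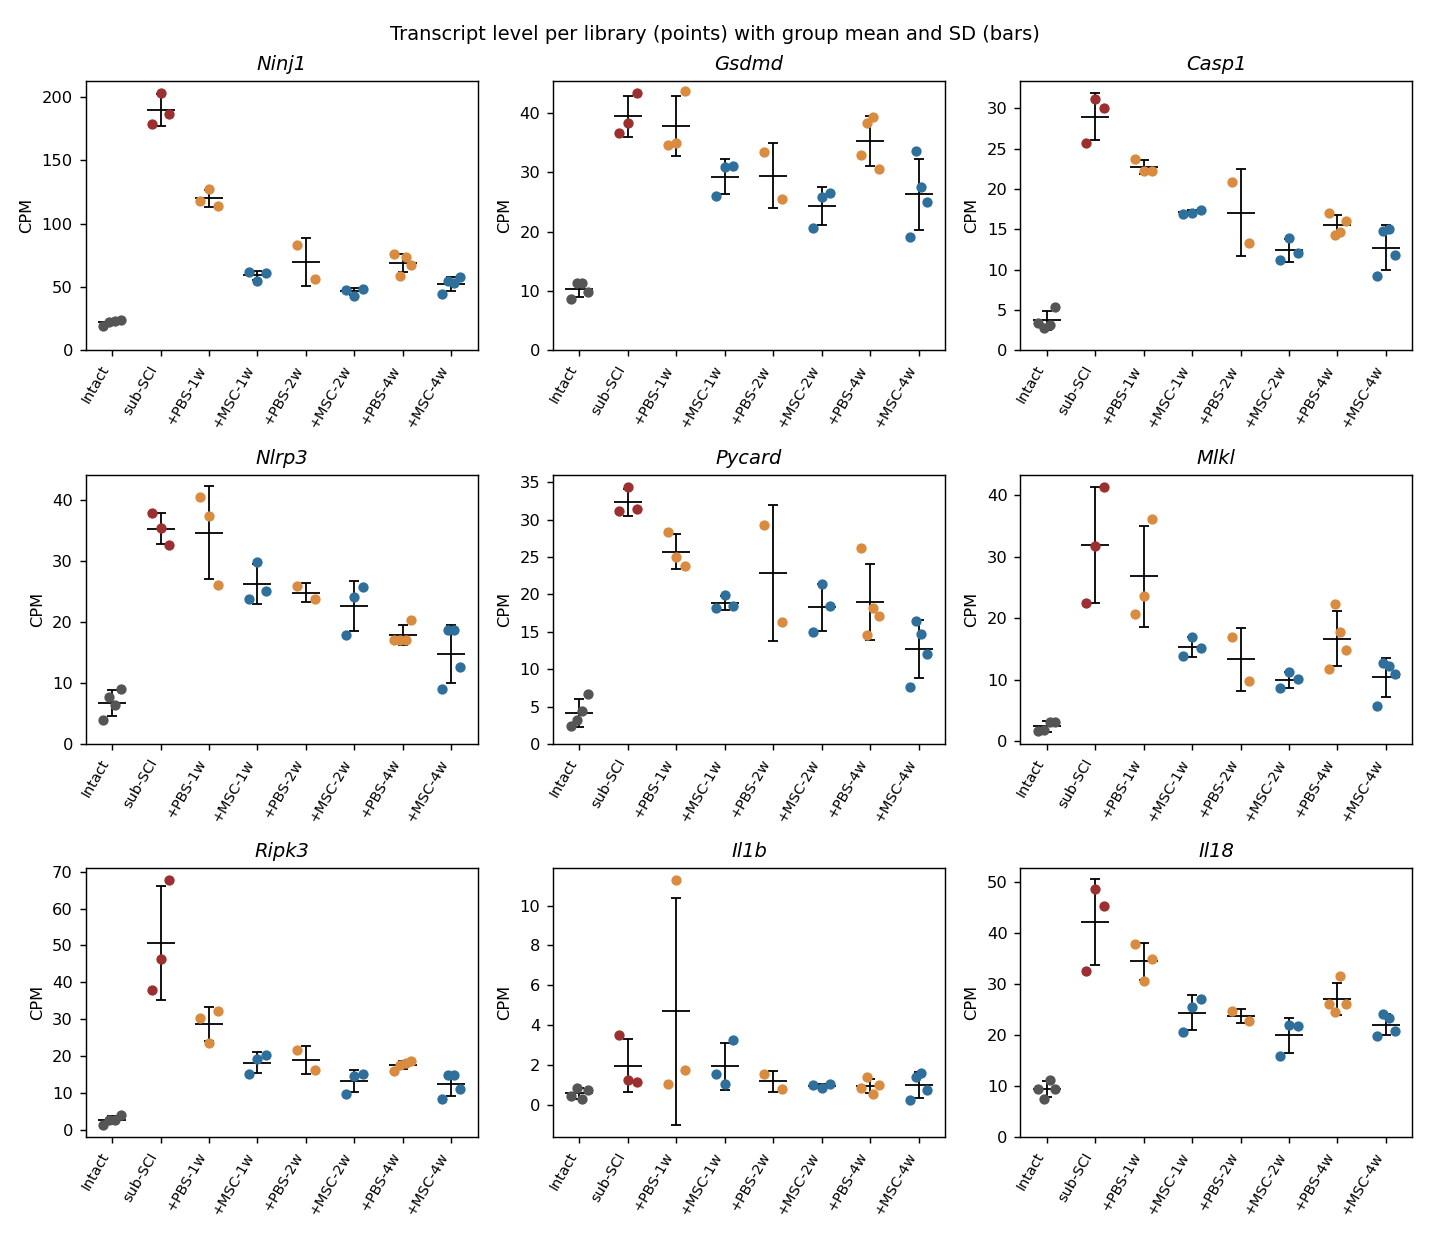
Transcript level (CPM, y axis) of the 9 genes in each library (points) of the 8 groups (x axis), with the group mean and SD as black bars and a separate scale per gene. Intact is gray, sub-SCI red, +PBS orange and +MSC blue; in every gene but Il1b all Intact libraries lay below all others, and 1 +PBS-1w library held Il1b at 11.3 CPM.

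The inflammasome components rose together in the subacute lesion. Casp1, the protease of the complex, had 3.44, 2.80, 3.19 and 5.44 CPM in Intact and 25.6, 31.2 and 30.1 CPM in sub-SCI. Nlrp3, the sensor, had 3.93, 7.70, 6.34 and 8.93 CPM against 37.8, 35.5 and 32.6 CPM. Pycard, which encodes ASC, had 2.35, 3.21, 4.39 and 6.61 CPM against 31.2, 34.4 and 31.4 CPM. For each of these genes the highest Intact library lay far below the lowest sub-SCI library. The log2 fold changes were 2.95 for Casp1 (SE 0.20, adjusted p = 1.46e-10), 2.39 for Nlrp3 (SE 0.24, adjusted p = 3.53e-08) and 2.95 for Pycard (SE 0.29, adjusted p = 2.27e-08) from quasi-likelihood F tests in edgeR, adjusted by Benjamini-Hochberg over all genes.

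The necroptosis pair had the steepest increases. Ripk3, the kinase, had 1.20, 2.47, 2.73 and 3.95 CPM in Intact and 37.9, 46.4 and 67.7 CPM in sub-SCI, a 19.3-fold difference (log2 fold change 4.27, SE 0.29, edgeR adjusted p = 1.77e-10). Mlkl, the membrane executioner, had 1.64, 1.79, 3.24 and 3.16 CPM against 22.5, 31.7 and 41.3 CPM, 12.9-fold (log2 fold change 3.69, SE 0.32, edgeR adjusted p = 3.93e-09). Both genes varied more among the sub-SCI libraries than Casp1 or Nlrp3 did, and in both replicate 1 was lowest and replicate 3 highest. Gsdmd, the pore former of pyroptosis, had 8.62, 11.3, 11.4 and 9.77 CPM in Intact and 36.7, 38.2 and 43.3 CPM in sub-SCI. It rose 3.83-fold (log2 fold change 1.94, SE 0.16, edgeR adjusted p = 2.75e-09), less than either necroptosis gene in estimate.

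The cytokine substrates of caspase-1 differed from each other. Il18 had 9.39, 7.42, 11.2 and 9.54 CPM in Intact and 32.6, 48.6 and 45.3 CPM in sub-SCI (log2 fold change 2.16, SE 0.16, edgeR adjusted p = 4.61e-10). Il1b was rare throughout, at 0.437, 0.825, 0.278 and 0.760 CPM in Intact and 3.49, 1.23 and 1.15 CPM in sub-SCI. Its groups did not overlap, but 1 sub-SCI library stood well above the other 2, and the log2 fold change of 1.75 (SE 0.71, edgeR adjusted p = 0.0359) did not reach the adjusted p of 0.01 required here. Per kilobase of gene length, the sub-SCI level of Il18 was 41.9 ± 8.37 CPM (SD, n = 3) and that of Il1b 1.40 ± 0.95. On the same scale Ninj1 stood at 163.2 ± 10.95, Pycard at 34.9 ± 1.95, Ripk3 at 25.3 ± 7.68 and Nlrp3 at 8.51 ± 0.63 in sub-SCI.

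Genes were called differentially expressed (DEGs) where the adjusted p was under 0.01 and the log2 fold change beyond 1 in either direction. By this rule 7 of the 8 genes other than Ninj1 rose between Intact and sub-SCI, with Il1b the exception. DESeq2 on the 2 groups alone also called Il1b (log2 fold change 1.79, adjusted p = 0.00442), as did edgeR without +PBS-1w replicate 2, a library outside the comparison that enters the shared estimate of spread (1.75, adjusted p = 0.00992). Over all genes tested, 16.6% were higher DEGs in this comparison. The median log2 fold change of the 8 genes was 2.67, beside -0.02 over all genes. In +PBS against Intact, 8, 7 and 7 of the 8 genes were higher DEGs at 1, 2 and 4 wpt, beside 13.5%, 8.84% and 13.3% of all genes. In +MSC against Intact, 7 of the 8 were higher DEGs at each week, beside 7.87%, 5.6% and 7.25% of all genes. These comparisons share the Intact libraries. Nlrp3 in +MSC-4w was close to the fold threshold (log2 fold change 1.13) and missed it without Intact replicate 1 (0.97), +MSC-4w replicate 2 (0.99) or +MSC-4w replicate 3 (0.995).

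Il1b at 1 wpt rested on a single library. The +PBS-1w libraries had 1.04, 11.3 and 1.76 CPM, or 35, 302 and 44 reads, and replicate 2 alone was high. With it, Il1b was a DEG against Intact (log2 fold change 3.003, SE 0.71, edgeR adjusted p = 0.00119). Without it, the log2 fold change was 1.26 (SE 0.62, edgeR adjusted p = 0.0985). The +MSC-1w libraries lay at 1.53, 1.02 and 3.27 CPM and overlapped the +PBS-1w libraries, with 1 of the 3 just below the lowest of them. From 2 wpt on, Il1b stayed between 0.239 and 1.61 CPM in every library and was a DEG against Intact in neither arm.

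Retention of the injury response over 4 weeks differed between genes in estimate. As a share of the sub-SCI log2 difference from Intact, +PBS-4w kept 91.7% for Gsdmd, 74.6% for Mlkl, 74.1% for Pycard, 70.4% for Il18, 69.4% for Casp1, 64.1% for Ripk3 and 59.0% for Nlrp3. The Gsdmd libraries of +PBS-4w, at 32.9, 38.2, 39.2 and 30.6 CPM, overlapped those of sub-SCI. Against sub-SCI, +PBS-4w had 1 of the 8 genes other than Ninj1 as a lower DEG, beside 3.09% of all genes. This was Ripk3 (log2 fold change -1.53, SE 0.26, edgeR adjusted p = 0.000274). The difference of Ninj1, -1.46, is a description since its sub-SCI level took part in its choice. Nlrp3 (-0.98) and Casp1 (-0.90) lay just short of the fold threshold, which Nlrp3 passed without +PBS-4w replicate 4 (-1.05), and Gsdmd differed by -0.16 (SE 0.16, edgeR adjusted p = 0.499). Without the replicate 1 libraries Casp1 (-1.07), Mlkl (-1.035) and Pycard (-1.03) were lower DEGs as well, beside 725 of 18231 genes.

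In +MSC-4w against sub-SCI, 5 of the 8 genes other than Ninj1 were lower DEGs, beside 6.1% of all genes. Ripk3 (log2 fold change -2.04, SE 0.27, edgeR adjusted p = 6.93e-06) and Mlkl (-1.61, SE 0.29, adjusted p = 0.000189) fell furthest among the genes tested here. Pycard fell by 1.35 (adjusted p = 0.000543), Nlrp3 by 1.26 (adjusted p = 0.000239) and Casp1 by 1.18 (adjusted p = 5.37e-05) on the log2 scale. Ninj1 differed by -1.85, again a description. Gsdmd (-0.58), Il18 (-0.93) and Il1b (-0.96) did not meet both criteria, though Il18 did without sub-SCI replicate 1 (-1.09). These counts do not compare the arms with each other, since both are set against the same sub-SCI libraries; the direct comparison follows.

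**Figure D2:**
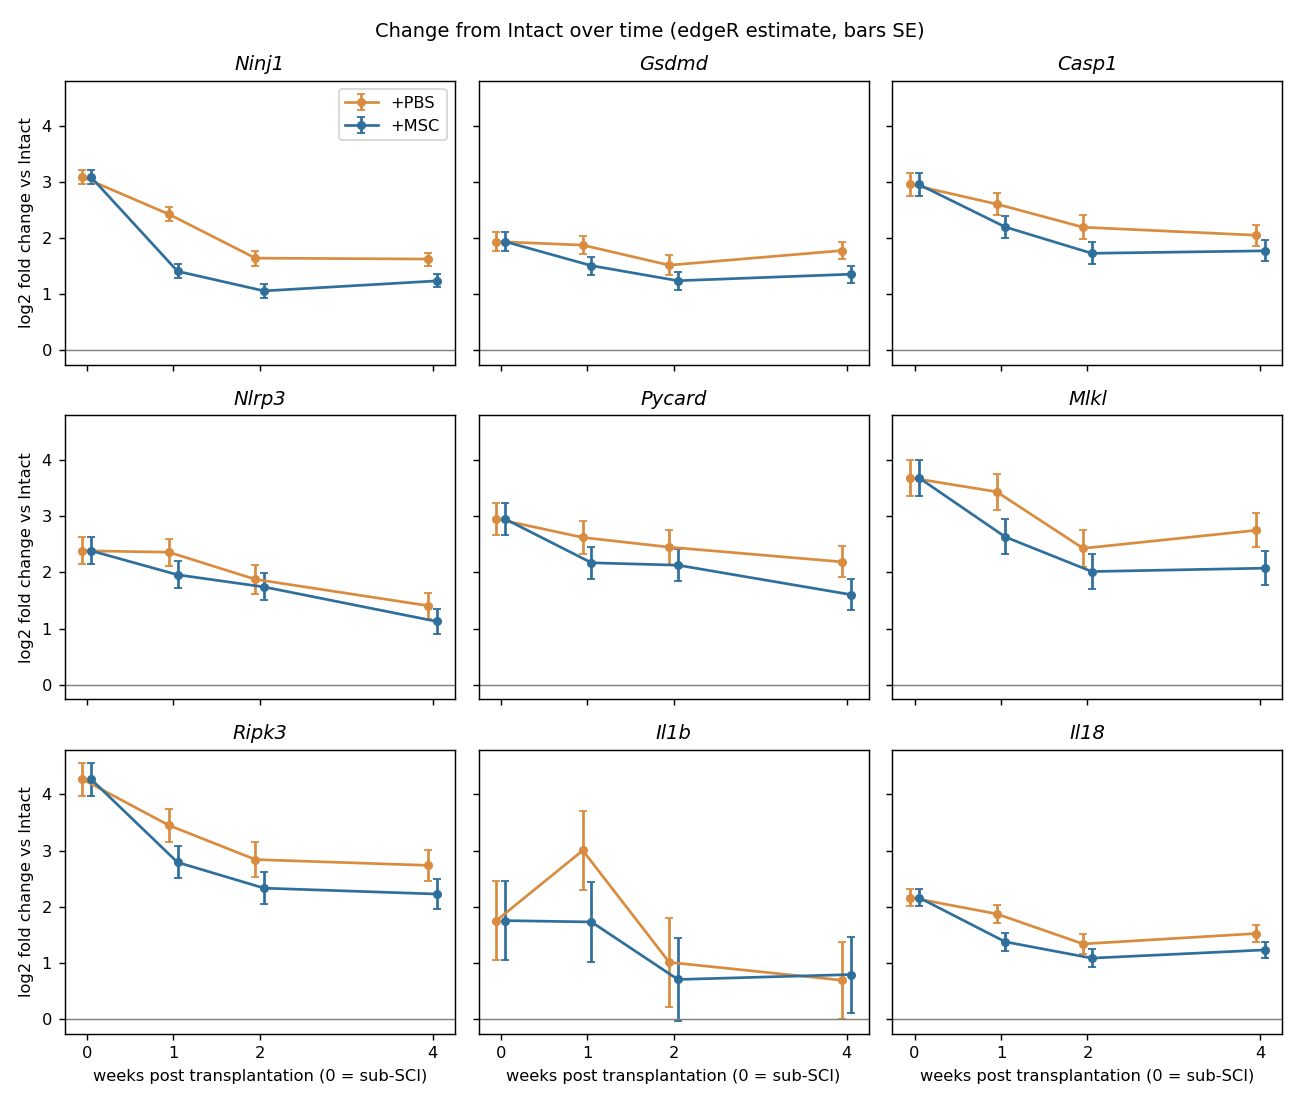
Log2 fold change against Intact (y axis, edgeR estimate with SE bars) of each gene in sub-SCI (placed at 0) and at 1, 2 and 4 wpt (x axis) in +PBS (orange) and +MSC (blue). Apart from Il1b at 4 wpt, the +MSC estimate lay below the +PBS estimate at every week; without the replicate 1 libraries Gsdmd, Nlrp3, Pycard, Mlkl and Il1b lay above it at 2 wpt, by 0.02 to 0.27.

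The direct comparison of +MSC with +PBS asked which of these transcripts differed with treatment. At 1 wpt, Ninj1 was 2.02-fold lower in +MSC (log2 fold change -1.02, SE 0.13), the difference on which it was chosen. Its 3 +MSC-1w libraries, the highest at 61.9 CPM, lay far below the 3 +PBS-1w libraries, the lowest at 114 CPM. None of the other 8 genes was a DEG, beside 0.0111% of all genes (2 genes) lower, and 4 of the 8 had an unadjusted p under 0.05, as had 3219 of all genes. DESeq2 also made 0 of the 8 a DEG, with 40 of all genes lower when fitted on all libraries and 114 on the 2 groups alone. The 8 estimates were all negative, from -0.37 for Gsdmd to -1.27 for Il1b, with a median of -0.48 beside 0.00 over all genes. That of Il1b was 0.47 without +PBS-1w replicate 2.

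Single libraries showed the same order at 1 wpt for most of the genes. Every +MSC-1w library lay below every +PBS-1w library for Ninj1 and for 6 of the other 8 genes, where 11.6% of all genes did so. Casp1 had 16.9, 17.1 and 17.4 CPM with MSC and 23.8, 22.2 and 22.2 CPM with PBS (log2 fold change -0.41, SE 0.20, edgeR adjusted p = 0.297). Il18 had 20.6, 25.4 and 27.2 CPM against 37.9, 30.6 and 34.8 CPM (log2 fold change -0.50, SE 0.17, adjusted p = 0.145). Mlkl had 13.8, 17.0 and 15.2 CPM against 20.7, 23.6 and 36.1 CPM (log2 fold change -0.80, SE 0.32, adjusted p = 0.190). Gsdmd, Pycard and Ripk3 were the other genes without overlap, and Nlrp3 and Il1b overlapped. None of these differences passed the test over all genes.

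At 2 wpt none of the 9 genes was a DEG between +MSC and +PBS, beside 0% of all genes lower. DESeq2 on all libraries also called 0 of the 9, with 21 of all genes lower, and Ninj1 alone of them had an unadjusted p under 0.05 in edgeR. Its log2 fold change was -0.58 (SE 0.14, edgeR adjusted p = 0.168). Without the replicate 1 libraries, 5 of the 8 other estimates turned positive, Gsdmd (0.02), Nlrp3 (0.06), Mlkl (0.12), Il1b (0.17) and Pycard (0.27). Every +MSC-2w library lay below both +PBS-2w libraries for Ninj1, Ripk3 and Il18, where 18.4% of all genes did so. At 4 wpt again none of the 9 was a DEG in edgeR, beside 0% of all genes lower. DESeq2 on all libraries also called 0 of the 9, with 12 of all genes lower. In edgeR 3 of the 8 other genes had an unadjusted p under 0.05, as had 4048 of all 17990 genes. The log2 fold change of Ninj1 was -0.39 (SE 0.11, edgeR adjusted p = 0.054). Every +MSC-4w library lay below every +PBS-4w library for the same 3 genes, Ninj1, Ripk3 and Il18, where 4.47% of all genes did so. Of the 8 other genes, Ripk3 and Il18 thus had every +MSC library below every +PBS library at all 3 weeks. This held for 150 of all genes (0.834%). It held for Ninj1 too, but its values at 1 wpt took part in its choice. The gaps at 4 wpt were narrow. In Ninj1 the gap lay between 57.6 CPM with MSC and 59.0 CPM with PBS, in Il18 between 24.15 and 24.45 CPM and in Ripk3 between 14.91 and 15.84 CPM.

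The treatment difference of Ninj1 was tested in the libraries of 2 and 4 wpt, since it was chosen on that of 1 wpt. The test is not fully independent of the choice. Ninj1 was also picked for a higher level after injury, and the +PBS libraries of these weeks are injured cords. Averaged over both weeks, Ninj1 was 1.40-fold lower in +MSC than in +PBS, a log2 fold change of -0.49 (SE 0.09, edgeR adjusted p = 0.00432). This passed the adjusted p of 0.01 but not the fold criterion. Under the DEG rule 0 of the 9 genes were lower in edgeR, beside 0.356% of all genes. DESeq2 on all libraries also called 0 of the 9, with 248 of 16271 genes lower. In edgeR 6 of the 8 other genes had an unadjusted p under 0.05, as had 5163 of all 17990 genes. At an adjusted p under 0.05 with no fold criterion Ninj1 alone of the 9 was lower, beside 5.61% of all genes. The adjusted p of Ninj1 depended on single libraries. It was 0.0984 without +PBS-2w replicate 1 (log2 fold change -0.34), 0.0102 without +MSC-2w replicate 1 (-0.50) and 0.0112 without +MSC-2w replicate 2 (-0.46). Without all replicate 1 libraries the log2 fold change was -0.28 (SE 0.08, edgeR adjusted p = 0.0771). The neutrophil markers (8 genes) summed to 455 and 481 CPM in the +PBS-2w libraries and to 108 to 153 CPM in the +MSC-2w libraries, with a median log2 difference of -2.19. At an adjusted p under 0.05, 0 of the 8 differed there. Other sums also stood apart at 2 wpt, given here as +PBS against +MSC. Lower in +MSC were microglia and macrophages (3705 to 5746 against 2041 to 3429 CPM), fibroblasts (1751 to 2294 against 558 to 893 CPM) and endothelial cells (235 to 258 against 141 to 205 CPM). Higher were neurons (2396 to 4580 against 5395 to 8230 CPM) and oligodendrocytes (21810 to 28350 against 30290 to 30530 CPM). Those of astrocytes, Schwann cells and T and B cells overlapped. The part of these cell types in the difference of Ninj1 was not tested.

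Averaged over all 3 weeks, 5 of the 8 other genes fell with MSC at an adjusted p under 0.05 with all libraries included, beside 10.9% of all genes. These were Mlkl (log2 fold change -0.63, SE 0.18, edgeR adjusted p = 0.0167), Ripk3 (-0.56, SE 0.16, adjusted p = 0.0185), Casp1 (-0.38, SE 0.12, adjusted p = 0.0232), Gsdmd (-0.35, SE 0.10, adjusted p = 0.0144) and Il18 (-0.35, SE 0.10, adjusted p = 0.0138). All 5 depended on a single library. Without +PBS-2w replicate 1, none had an adjusted p under 0.05: Il18 stood at -0.35 (edgeR adjusted p = 0.0564), Gsdmd at -0.31 (0.0879), Ripk3 at -0.50 (0.0884), Mlkl at -0.50 (0.111) and Casp1 at -0.28 (0.153). Without all replicate 1 libraries the 5 adjusted p-values ran from 0.0551 for Mlkl to 0.412 for Casp1, with log2 fold changes of -0.46 and -0.17. Pycard (-0.45, adjusted p = 0.0591), Nlrp3 (-0.27, adjusted p = 0.185) and Il1b (-0.49, adjusted p = 0.433) did not pass. Under the DEG rule 0 of the 8 were lower, beside 0.956% of all genes, since no estimate reached a log2 fold change of -1. The corresponding value of Ninj1, a description, was -0.66 (SE 0.08). The estimates for Ninj1 at the successive weeks were -1.02, -0.58 and -0.39, also a description. The first of them took part in the choice of Ninj1, so no fading of the difference can be read from them. The test that the treatment difference was equal at the 3 weeks called none of the 8 other genes at an adjusted p under 0.01, and 0% of all genes; DESeq2 also called 0 of the 8, and 0 of them had an unadjusted p under 0.05 in edgeR.

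**Figure D3:**
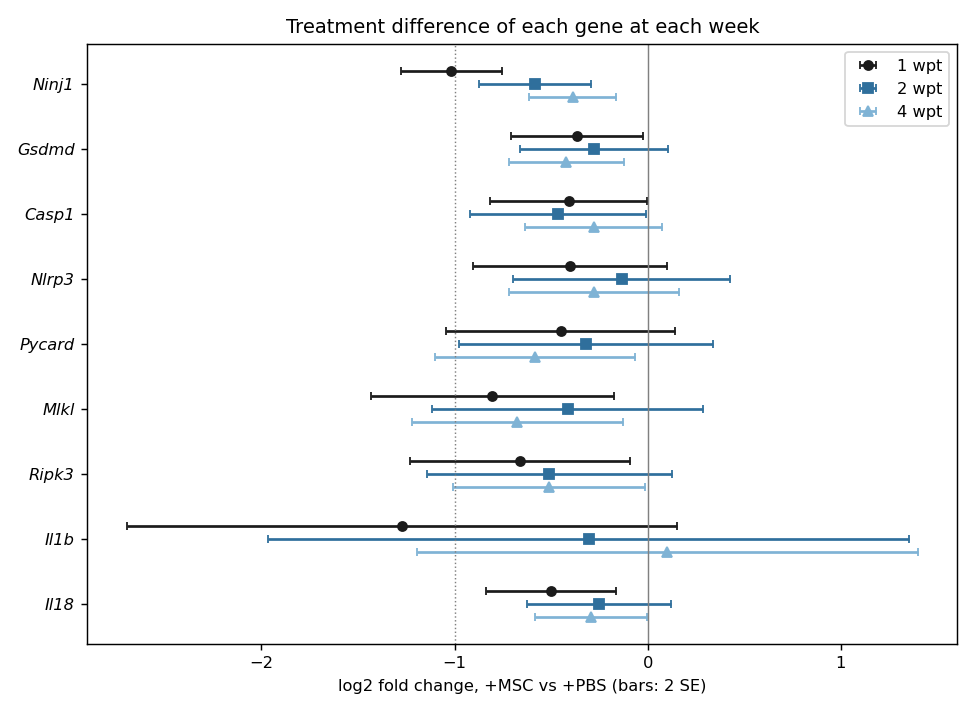
Log2 fold change of +MSC against +PBS (x axis; edgeR estimate, bars 2 SE) for the 9 genes (y axis) at 1 wpt (circles), 2 wpt (squares) and 4 wpt (triangles). The dotted line marks -1, passed by the estimates of Ninj1 (-1.02) and Il1b (-1.27) at 1 wpt.

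The wider pathway was read from 7 gene lists, counted without the 9 genes. Of 15 other rows for inflammasome sensors, adaptors and caspases, 9 were higher DEGs and 0 lower in sub-SCI against Intact. Over all 17990 genes tested, 16.6% were higher and 3151 genes lower DEGs. Casp4, the caspase that senses intracellular lipopolysaccharide, rose from 5.30 ± 1.27 to 22.8 ± 1.98 CPM (SD, n = 4 and 3). Its log2 fold change was 2.1 (SE 0.15, edgeR adjusted p = 3.06e-10), and its group means then stayed between 20.1 and 22.5 CPM in both arms at every week. Averaged over the weeks, Casp4 differed by -0.08 on the log2 scale between +MSC and +PBS (SE 0.09, edgeR adjusted p = 0.575). Gbp2, an interferon-induced GTPase, had a log2 fold change of 3.46 in sub-SCI (SE 0.29, edgeR adjusted p = 2.41e-09).

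Ninj2, the paralog of Ninj1, changed the opposite way after injury. It had 20.5 ± 2.99 CPM in Intact and 8.10 ± 2.41 CPM in sub-SCI (SD, n = 4 and 3), a log2 fold change of -1.34 (SE 0.27, edgeR adjusted p = 0.00021). Between +MSC and +PBS its log2 difference averaged over the weeks was 0.34 (SE 0.16, edgeR adjusted p = 0.131). Of the 4 gasdermins and ninjurins other than Ninj1 and Gsdmd, 0 were higher DEGs and 1, Ninj2, lower in sub-SCI. Over all 17990 genes, 16.6% were higher and 3151 genes lower DEGs there.

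Among 12 other necroptosis genes, 8 were higher DEGs in sub-SCI and 0 lower, beside 16.6% of all genes higher. Tnfrsf1a, the receptor through which tumor necrosis factor starts this pathway, rose with a log2 fold change of 2.53 (SE 0.15, edgeR adjusted p = 2.52e-11). Of 15 other interleukin-1 family and receptor genes, 11 were higher DEGs, beside 16.6% of all genes. Among them was Myd88, the shared signaling adaptor (2.55, SE 0.19, edgeR adjusted p = 4.91e-10). Il1a, the sister cytokine of Il1b, rose by 3.90 (SE 0.41, adjusted p = 5.34e-08), from 0.250 ± 0.048 to 3.81 ± 1.05 CPM. Of 12 priming receptors and NF-kB genes, 11 were higher DEGs, beside 16.6% of all genes. Cd14 (3.90, SE 0.25, adjusted p = 6.4e-11), Tlr2 (3.85, SE 0.29, adjusted p = 5.51e-10) and Irf8 (3.46, SE 0.23, adjusted p = 1.07e-10), which encode innate immune receptors and a myeloid transcription factor, led this list.

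Other forms of cell death were counted beside these. Of 11 apoptosis genes, 8 were higher DEGs in sub-SCI and 0 lower, beside 16.6% of all genes higher. Bid, which links death receptors to mitochondria, had the smallest adjusted p of this list (log2 fold change 1.78, SE 0.13, edgeR adjusted p = 4.1e-10). In +PBS-4w against Intact, 3 of the 11 apoptosis genes and 10 of the 15 inflammasome rows were higher DEGs, beside the 13.3% of all genes; the lists were not tested against each other. Of 8 ferroptosis genes, 2 were higher DEGs in sub-SCI, beside 16.6% of all genes. These were Hmox1, which degrades heme (5.25, SE 0.28, adjusted p = 6.41e-12), and Nfe2l2, the regulator of antioxidant genes (1.41, SE 0.16, adjusted p = 2.1e-07).

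Between +MSC and +PBS none of the list genes other than Ninj1 was a DEG at any week or on average. At an adjusted p under 0.05 averaged over the weeks, lower genes numbered 1 of 15 in the inflammasome list, 0 of 4 in the gasdermins and ninjurins, 5 of 12 in necroptosis, 3 of 15 in the interleukin-1 family, 5 of 12 in priming and NF-kB, 5 of 11 in apoptosis and 3 of 8 in ferroptosis, beside the 10.9% of all genes. Among the genes named above, Cd14 (-0.77, SE 0.14, edgeR adjusted p = 0.00113), Myd88 (-0.51, SE 0.11, adjusted p = 0.0037) and Tnfrsf1a (-0.43, SE 0.09, adjusted p = 0.00264) fell with all libraries included. These list counts were not recomputed without single libraries or without the replicate 1 libraries. Irf8 and Il1a did not pass, with values of -0.35 (SE 0.13, adjusted p = 0.0596) and -0.45 (SE 0.22, adjusted p = 0.147).

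Markers of microglia and macrophages were also higher after injury. The summed level of 12 markers was 375 to 749 CPM in Intact, 6003 to 6656 in sub-SCI, 5401 to 6907 in +PBS-1w, 3705 to 5746 in +PBS-2w and 3498 to 4955 in +PBS-4w. It was 3423 to 3562 in +MSC-1w, 2041 to 3429 in +MSC-2w and 3089 to 3783 in +MSC-4w. All 12 were higher in sub-SCI than in Intact, with a median log2 fold change of 3.09, and none was at 0 in any library. Between +MSC and +PBS, 0, 4 and 4 of the 12 were higher at 1, 2 and 4 wpt, with medians of -0.57, -0.13 and -0.11. Their part in the differences of the 9 genes was not tested.

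Set against this marker sum, Ninj1 did not keep a constant ratio. Per 1000 CPM of the summed markers, Ninj1 had 41.2 ± 8.06 CPM in Intact (SD, n = 4), 30.2 ± 1.09 in sub-SCI (n = 3), 19.7 ± 3.43 in +PBS-1w (n = 3) and 17.0 ± 0.84 in +MSC-1w (n = 3). The +MSC-1w ratios of 16.1 to 17.8 overlapped those of +PBS-1w, 17.1 to 23.6. At 2 wpt the ratio was 14.8 ± 0.46 in +PBS (n = 2) and 16.8 ± 5.82 in +MSC (n = 3), and at 4 wpt 16.6 ± 1.94 and 15.7 ± 2.01 (n = 4 each). At 1 wpt the overlap came from +MSC-1w replicate 1 (17.8) and +PBS-1w replicate 1 (17.1) alone. Abundant markers weigh most in the sum, and its part in the Ninj1 difference was not tested. This ratio was added as a description and has no test.

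**Figure D4:**
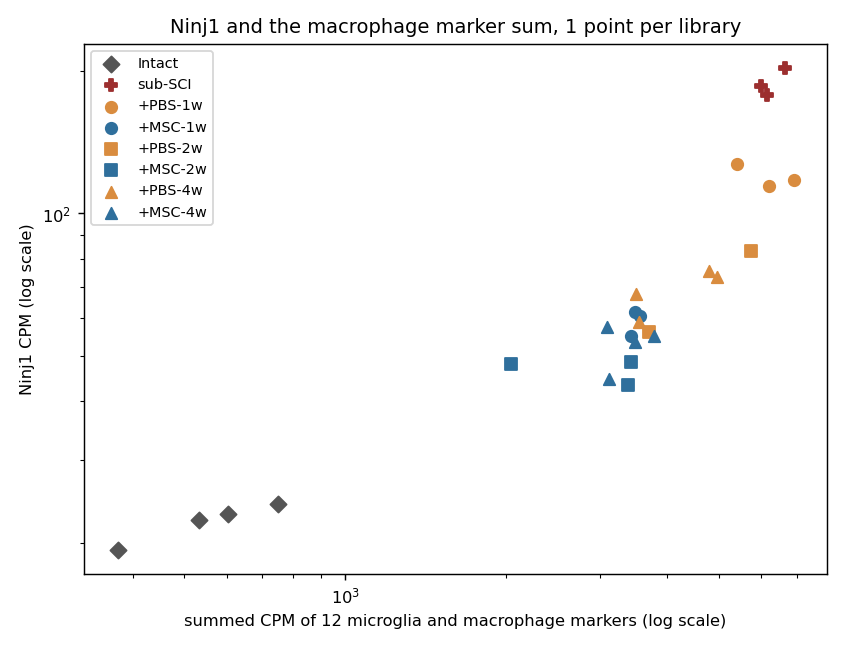
Ninj1 (CPM, y axis, log scale) against the summed CPM of 12 microglia and macrophage markers (x axis, log scale), 1 point per library, by group. Intact libraries lie at the lower left and sub-SCI libraries at the upper right, while +PBS-1w libraries have marker sums like those of sub-SCI with less Ninj1.

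Other cell types shifted as well. The fibroblast markers (8 genes) summed to 172 to 1255 CPM in Intact, 8020 to 19530 in sub-SCI, 4190 to 9436 in +PBS-1w and 1967 to 3627 in +MSC-1w. The neuron markers (10 genes) summed to 9189 to 11210 CPM in Intact, 425 to 1889 in sub-SCI, 1087 to 2374 in +PBS-1w and 3477 to 6592 in +MSC-1w. The neutrophil markers summed to 115 to 198 CPM in +PBS-1w and 102 to 249.7 CPM in +MSC-1w, and to 43.8 to 313 CPM in +PBS-4w and 89.6 to 329 CPM in +MSC-4w. Between +MSC and +PBS at 1 wpt, median log2 fold changes were 0.42 for oligodendrocyte, 0.54 for astrocyte, -0.26 for endothelial, -0.03 for Schwann cell and -0.10 for T and B cell markers, with 0 DEGs in each of these lists. Averaged over the weeks, markers higher in +MSC at an adjusted p under 0.05 were 10 of 10 neuron, 2 of 8 astrocyte and 1 of 8 oligodendrocyte markers (5, 0 and 0 of them DEGs). Lower were 8 of 8 fibroblast, 4 of 12 macrophage and 2 of 6 endothelial markers (0, 1 and 1 of them DEGs). Of all 17990 genes, 10.9% were lower at that adjusted p, and the share higher is not given. By the DEG rule 290 were higher and 172 lower. Without the replicate 1 libraries, 34 of 18231 genes were higher and 123 lower DEGs. The marker counts were not recomputed without those libraries. Of the neutrophil, Schwann cell and T and B cell markers, several had no read in some libraries, among them Cxcr2, Ncmap, Cd3d, Cd3e, Cd3g, Cd79b and Ms4a1. The part of these shifts in the results was not tested.

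The transcripts most like Ninj1 across the 26 libraries were sought by Pearson's r of log2 CPM, as a description without a p-value, since all libraries share the injury contrast. The 5 highest were Ctsl (r = 0.983), a lysosomal cathepsin, Tmem86a (0.980), a lysoplasmalogenase, Ubtd1 (0.978), Rab8a (0.975), a small GTPase of membrane traffic, and Arpc5 (0.974), a subunit of the actin-nucleating Arp2/3 complex. Tmem86a ran closest in level, from 17.3 ± 0.98 CPM in Intact to 195 ± 33.8 in sub-SCI, 122 ± 6.38 in +PBS-1w and 60.1 ± 7.99 in +MSC-1w. Its log2 fold change between the last 2 groups was -1.03 (SE 0.17). Ctsl differed by -0.82 (SE 0.14) there and by -0.57 (SE 0.10) as the mean of 2 and 4 wpt. These genes were picked for likeness to Ninj1 in the same libraries, so their differences are a description with no test. Among the pathway genes, Ripk3 (r = 0.932, rank 180 of all genes tested), Il18 (0.930, rank 213) and Casp1 (0.923, rank 288) were nearest to Ninj1, and Il1b (0.565, rank 4451) was furthest.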

How the data were processed

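RNA sequencing of rat spinal cord segments (26 libraries, 8 groups from the sample labels) was analysed for 9 genes. The authors made poly(A) libraries and trimmed the reads with Trim Galore 0.5.0. Reads mapping to human sequence (GRCh38, HISAT2 2.1.0) were discarded by them, and what remained was aligned to Rnor6. Properly paired alignments (SAMtools 1.9) were then counted per gene with featureCounts 1.6.4. The deposited values are these raw counts, without normalization. The annotation release and strand setting are not given in the sources used here, so genes that overlap others are uncertain. A rat read similar enough to human sequence to map there would also have been removed. The methods give 2 repeats to +MSC-2w where the labels give 2 to +PBS-2w; the labels were followed.

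Counts were fitted in R 4.3.3 with edgeR 4.0.16 (filterByExpr, TMM, glmQLFit, glmQLFTest) in 1 model of 8 groups over 17990 genes, with Benjamini-Hochberg adjustment. The study names DESeq2 for this step; DESeq2 1.42.0 was an alternative. The SE of a log2 fold change was derived from its F value. The marker and pathway lists were taken whole; of them 9 symbols were not in the table and 4 genes were not tested, and the inflammasome list counts Nlrp6, which has 2 rows, in both. The genes named from a list were the 9 members, those called between +MSC and +PBS, and, in sub-SCI against Intact, up to 3 DEGs of either direction ranked by adjusted p. Some genes that this rule names are not reported here. The members and lists were chosen with earlier results of these data known. No 2 libraries of a group agreed within sampling noise. Fits were tested on simulated data first. Coordinates of promoters are RefSeq's (GRCr8), searched for fixed motifs; gene coordinates of Rnor6 were not used. The alternatives were DESeq2 on all libraries or on 2 groups, edgeR on 2 groups, other size factors, no filter, a minimum of 10 counts in all libraries, a block for the replicate number, a term for or removal of replicate 1 libraries, and each library left out. Intervals of counting error are not given; SDs and SEs cover the spread between libraries.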

Additional observations from a re-analysis of the deposited data

Results flagged for a closer look

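Nlrp3 in +PBS-4w had 1 library far from the other 3. Replicate 4 stood at 20.4 CPM and the others between 17.07 and 17.11 CPM, so that its gap to the nearest took a share of 0.986 of the group's range. The range itself is small beside the Intact and sub-SCI difference. Of 27 combinations of gene and group with 4 libraries examined in this way, 1 was marked, and chance marks about 1 in 20.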

How the results depend on the processing

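The count of genes called in each comparison stayed within 1.5 times the value in the text under DESeq2 (both forms), edgeR on 2 groups, median-of-ratios size factors, no filter, at least 10 counts in every library, a term for replicate 1, and each library left out. Without the fold criterion, at an adjusted p under 0.05, 5 of the 8 genes other than Ninj1 were called as the mean of 1, 2 and 4 wpt, 1 of the 9 as the mean of 2 and 4 wpt, and 6 of the 8 in +PBS-4w against sub-SCI (7 with Ninj1, whose choice used sub-SCI). Without all replicate 1 libraries, 4 of the 8 were called in that last comparison (5 with Ninj1). EdgeR on 2 groups lost the calls of Il1b in +PBS-1w (adjusted p = 0.0159) and Nlrp3 in +MSC-4w (adjusted p = 0.0124) against Intact, and DESeq2 on 2 groups added Il1b in sub-SCI and +MSC-1w. The descriptive difference of Ninj1 at 1 wpt was -1.06 in edgeR on 2 groups, and that of +MSC-2w from Intact 0.99 without all replicate 1 libraries. For Ninj1 as the mean of 2 and 4 wpt, the log2 fold change was -0.28 (adjusted p = 0.0771) without all replicate 1 libraries and ran from -0.62 to -0.34 with each library left out.

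Signs turned for these single-gene differences, none of them called. Without all replicate 1 libraries, +MSC against +PBS at 2 wpt was 0.02 for Gsdmd, 0.064 for Nlrp3, 0.27 for Pycard, 0.12 for Mlkl and 0.17 for Il1b. The mean of 2 and 4 wpt was then 0.037 for Pycard and 0.27 for Il1b, and +MSC-4w against sub-SCI was 0.046 for Il1b. With each library left out, the ranges at 2 wpt were -0.24 to 0.009 for Nlrp3, -0.68 to 0.17 for Pycard, -0.76 to 0.047 for Mlkl and -0.69 to 0.23 for Il1b. For Il1b they were -1.87 to 0.47 at 1 wpt (0.47 without +PBS-1w replicate 2), -0.21 to 0.42 at 4 wpt, -0.69 to 0.089 for the mean of 1, 2 and 4 wpt and -0.30 to 0.16 for the mean of 2 and 4 wpt. The cause was not tested.

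Same-numbered +MSC and +PBS libraries had correlations of their deviations from -0.078 to 0.233, above 0.1 in 4 of 9 pairs. Since not every pair was above 0.1, and no label ties the numbers to an animal or batch, they were not taken as pairs. With the replicate number as a block, the value of Ninj1 as the mean of 2 and 4 wpt was -0.49 (adjusted p = 0.00397), and the call of 1 single-gene value changed, Nlrp3 in +PBS-4w against sub-SCI (-1.04). That gene lay close to the fold threshold there and was also called with DESeq2 on all libraries (-1.02). Depth limits Il1b most, with 6 to 302 reads per library.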
